A study of Homo sapiens with 6 samples.

Results

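The genes described here are 39 that make, interconvert or carry amino acids, or that belong to the stress response controlling them. They were chosen by name from the 58735 genes of the count table, and 38 of the 39 had enough reads to be tested among 15294 tested genes. They comprise 20 enzymes, 11 transporters and 8 transcription factors and other stress genes. ASNS, PSAT1 and SLC7A5, which are known targets of the transcription factor ATF4, were set against the remaining 28 enzymes and transporters.

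RNA was sequenced from 6 samples of KYSE410, a human line of oesophageal squamous carcinoma origin. In 3 of them ADAR1, which edits adenosine to inosine within base-paired RNA, had been knocked down (siADAR1). The 3 controls carry NC in their titles and a wild type genotype in their labels, which do not say whether they received an siRNA, so loss of ADAR1 cannot be told apart from siRNA delivery or from its action on other transcripts. No sample of either group has a drug or radiation treatment in its labels, all 6 share 1 batch value, and no dose or time of the siRNA is stated. No label states that the samples were separate cultures, so the p-values cover sample-to-sample spread that could be technical alone.

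ATF4 is translated when the initiation factor eIF2 is phosphorylated, as happens when amino acids run short, when unfolded protein builds up in the endoplasmic reticulum, or when base-paired RNA activates the kinase PKR. With a C/EBP partner it binds a composite element in the promoters of genes for amino acid synthesis and uptake. Serine made from glycolytic intermediates feeds the folate cycle, which runs in the mitochondria and in the cytosol, and tumour cells draw on this pathway for nucleotides and glutathione.

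ADAR mRNA was at 443.6 ± 12.1 CPM (counts scaled to a common library size, mean ± SD, n = 3) in control and 88.7 ± 9.72 in siADAR1, or 20% of control (log2 fold change -2.32 ± 0.09 SE, adjusted p = 1.06e-08, edgeR quasi-likelihood test, Benjamini-Hochberg over the whole set of tested genes, as for every adjusted p here unless another tool is named). Libraries held 15175619 to 17329443 counts. Of 8 squamous epithelial markers all had reads, with a summed level of 1226 to 1361 CPM in control and 1197 to 1279 CPM in siADAR1. CDH1, KRT17 and EPCAM were the largest parts of the sum, at 575.2, 292.2 and 255.4 CPM in control. KRT14 was close to 0 in both groups (0.0219 and 0.0588 CPM). The sum hides opposite moves: of 7 tested, KRT17 and TP63 rose, KRT5, KRT6A and CDH1 fell, and 2 were not called. KRT6A fell from 26.3 to 5.61 CPM. Over all tested genes 51.0% were called. Markers of glandular epithelium, endothelium and blood summed to at most 2.15 CPM in any library. The 5 fibroblast markers summed to 12.4 to 19.6 CPM in control and 20.4 to 25.7 CPM in siADAR1, with DCN at 0. Nearly all of that sum was COL1A1, at 15.9 CPM in control and 21.5 in siADAR1. COL1A2 averaged 0.0449 and 0.12 CPM, COL3A1 0.156 and 0.268, and PDGFRB 0.946 and 0.534, control first. The part of these markers in the results was not tested.

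The known ATF4 targets of the set moved apart: 1 rose, 1 fell and 1 was not called. ASNS (ENSG00000070669, chr7:97852118-97872542, minus strand, GRCh38), which makes asparagine from aspartate and glutamine, was at 1.21, 0.942 and 0.92 CPM in control replicates 1 to 3 and 22.8, 11.4 and 13.4 CPM in siADAR1 replicates 1 to 3. It was thus barely detected in every control and 15.4-fold higher in siADAR1, with no overlap between the groups (log2 fold change 3.94 ± 0.30, adjusted p = 7.16e-07). SLC7A5 (ENSG00000103257, chr16:87830023-87869488, minus strand), the light chain of the LAT1 exchanger for leucine and other large neutral amino acids, was at 1573, 1412 and 1511 CPM in control and 745, 735 and 690 CPM in siADAR1. Every siADAR1 library lay far below every control, and the group mean fell to 48.3% of control (log2 fold change -1.05 ± 0.08, adjusted p = 4.78e-07). PSAT1 (ENSG00000135069, chr9:78297143-78330093, plus strand), the aminotransferase of serine synthesis, was at 93.5, 105.1 and 87.9 CPM in control and 106.1, 98.0 and 102.7 CPM in siADAR1. Its groups overlapped and no difference was called (log2 fold change 0.10 ± 0.09, adjusted p = 0.397). On the per-length scale of the deposited FPKM (fragments scaled to gene length and library size), the level of ASNS in siADAR1, 3.52 ± 1.36, was still well below that of PSAT1 at 46.1 ± 1.82 and of SLC7A5 at 150.5 ± 6.42. In bulk RNA, fewer cells expressing a gene and less RNA per cell cannot be told apart.

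The promoters of these genes are shown because ATF4 is known to act through a short element in such regions. Each line gives the 250 bases before a RefSeq transcript start (GRCh38.p14) in the direction of transcription, with any match to TGATGNAA, an 8-letter core of the C/EBP-ATF element searched on both strands, in capitals.
ASNS, chr7:97872409-97872658, minus strand: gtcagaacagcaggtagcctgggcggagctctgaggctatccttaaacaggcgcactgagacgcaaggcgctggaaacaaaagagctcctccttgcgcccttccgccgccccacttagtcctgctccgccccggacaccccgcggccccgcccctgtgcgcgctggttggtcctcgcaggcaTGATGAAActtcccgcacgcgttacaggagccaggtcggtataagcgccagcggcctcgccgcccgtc
PSAT1, chr9:78296875-78297124, plus strand: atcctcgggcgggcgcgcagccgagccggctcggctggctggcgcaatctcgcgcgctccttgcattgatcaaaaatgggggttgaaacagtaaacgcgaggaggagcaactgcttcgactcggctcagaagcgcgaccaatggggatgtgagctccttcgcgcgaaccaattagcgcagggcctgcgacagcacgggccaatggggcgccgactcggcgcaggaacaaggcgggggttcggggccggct
SLC7A5, chr16:87869508-87869757, minus strand: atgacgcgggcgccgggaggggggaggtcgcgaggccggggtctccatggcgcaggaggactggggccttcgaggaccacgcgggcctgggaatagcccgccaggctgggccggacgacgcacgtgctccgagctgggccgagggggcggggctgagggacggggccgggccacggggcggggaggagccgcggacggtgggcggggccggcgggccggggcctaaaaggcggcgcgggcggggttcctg
The ASNS sequence holds 1 match, whose first base is at position -68 counted from the start. The window of the other RefSeq start of ASNS (250 bases before it at chr7:97872166-97872415) held 0 matches. No match to these letters was found in the PSAT1 and SLC7A5 windows, which also include the 50 bases after the start. G and C made up 66.0% of the ASNS bases shown, 65.6% of those of PSAT1 and 79.6% of those of SLC7A5.

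Across the set, RefSeq promoter windows of 250 bases before to 50 after the start were available for 32 of the 39 genes, and 11 of the 32 (34.4%) held the motif, against 300 of 10574 tested genes with a window (2.84%) and 3.62% of all 35116 windows. The genes were listed partly for known ATF4 control, so this share is a description of the list, and a match is neither a shown binding site nor a cause. Windows of 30 bases around each match follow, with the match in capitals, first for the 5 genes that rose, then for the 2 that fell, then for the 4 that were not called.
ASNS, chr7:97872458-97872487, minus strand: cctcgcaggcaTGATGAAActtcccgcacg
CEBPG, chr19:33374060-33374089, plus strand: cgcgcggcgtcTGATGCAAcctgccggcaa
MTHFD1L, chr6:150866346-150866375, plus strand: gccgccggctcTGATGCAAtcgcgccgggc
SLC1A4, chr2:64989381-64989410, plus strand: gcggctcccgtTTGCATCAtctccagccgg
SLC1A5, chr19:46784893-46784922, minus strand: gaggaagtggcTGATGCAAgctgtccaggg
BCAT1, chr12:24949131-24949160, minus strand: tgtcttcctgcTGATGCAAtccgctaggtc
SLC38A1, chr12:46266502-46266531, minus strand: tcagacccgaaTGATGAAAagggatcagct
GOT1, chr10:99430804-99430833, minus strand: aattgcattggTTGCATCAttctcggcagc
SLC3A2, chr11:62881719-62881748, plus strand: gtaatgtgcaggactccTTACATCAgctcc
SLC7A1, chr13:29595663-29595692, minus strand: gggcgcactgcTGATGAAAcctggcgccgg
SLC1A3, chr5:36596357-36596386, plus strand: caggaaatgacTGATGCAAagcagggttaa
The motif was present in 5 of the 12 risen genes with a window, in 2 of the 10 fallen genes and in 4 of the 10 that were not called. Matches within 50 bases of a start are found in BCAT1 and SLC38A1, which fell, in CEBPG, SLC1A4 and MTHFD1L, which rose, and in SLC3A2 and SLC7A1, which were not called. GOT1, SLC1A4 and SLC3A2 carry it on the opposite strand, read as TTNCATCA.

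Of the 38 tested genes of the set, 17 rose and 10 fell, so 71.1% were called in either direction. Over all tested genes 51.0% were called, 26.0% higher and 25.0% lower, against 44.7% higher and 26.3% lower in the set. The genes of the set had more reads than most, with a median level of 66.2 CPM against 22.9. Counting genes averaging 10 CPM or more, 69.7% of 33 in the set were called (39.4% higher, 30.3% lower) against 59.8% of 9882 (27.9% higher, 31.8% lower). The median log2 fold change of the set was 0.30, against 0.0047 over all tested genes. Scaling by library totals alone moved the median of all tested genes to 0.12 and their calls to 4892 higher and 2887 lower, from 3973 and 3831, and moved the median of the set to 0.42.

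**Figure D1:**
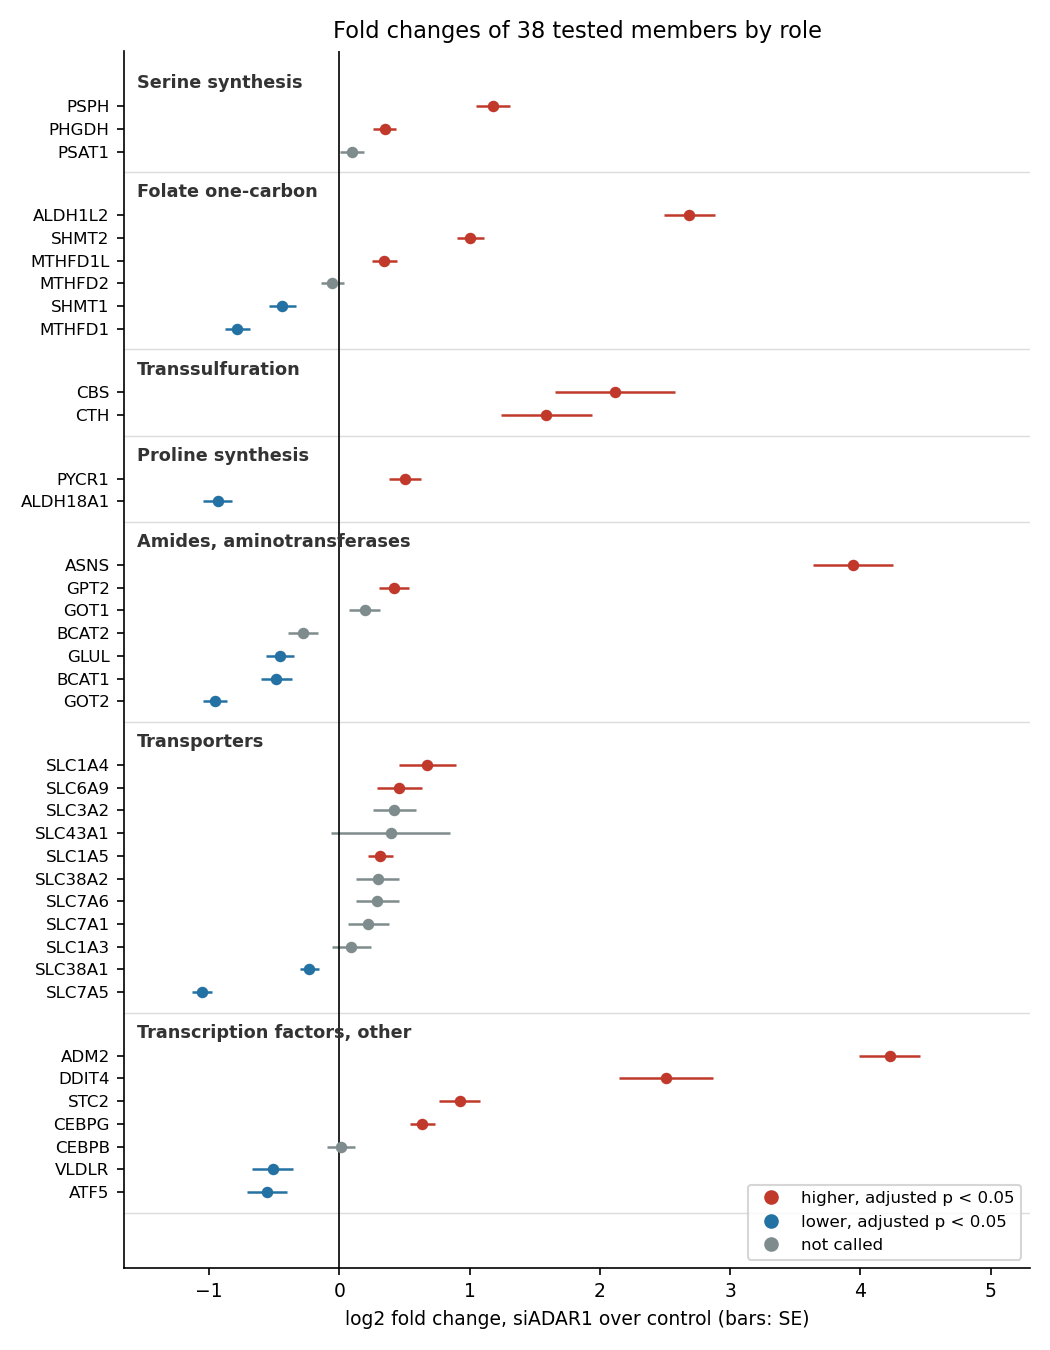
Log2 fold change of siADAR1 over control (horizontal axis, bars are SE) for the 38 tested genes, grouped by role and coloured by call at an adjusted p below 0.05. ADM2 and ASNS lie farthest to the right at 4.22 and 3.94, SLC7A5 lies farthest to the left at -1.05, and every role group except serine synthesis and transsulfuration holds both genes that rose and genes that fell.

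At least 2-fold changes ran mainly upward: 8 genes of the set rose by that much (ADM2, ASNS, ALDH1L2, DDIT4, CBS, CTH, PSPH and SHMT2) and SLC7A5 alone fell by that much. Across the table, 9.85% of tested genes rose at least 2-fold and 4.94% fell at least 2-fold. The control and siADAR1 libraries did not overlap for 29 genes of the set, 18 higher and 11 lower, where 60.3% of all tested genes did not overlap. The 28 enzymes and transporters other than ASNS, PSAT1 and SLC7A5, some of which are also known ATF4 targets, held 12 that rose, 7 that fell and 9 that were not called, with a median log2 fold change of 0.30. These values came from 18 enzymes, of which 9 rose and 6 fell, and 10 transporters, of which 3 rose and 1 fell. Set against mean level, ADM2, ASNS, ALDH1L2, CBS and CTH rose from few reads, DDIT4 rose at a level above the median of the set, and SLC7A5, with the most reads, fell.

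**Figure D2:**
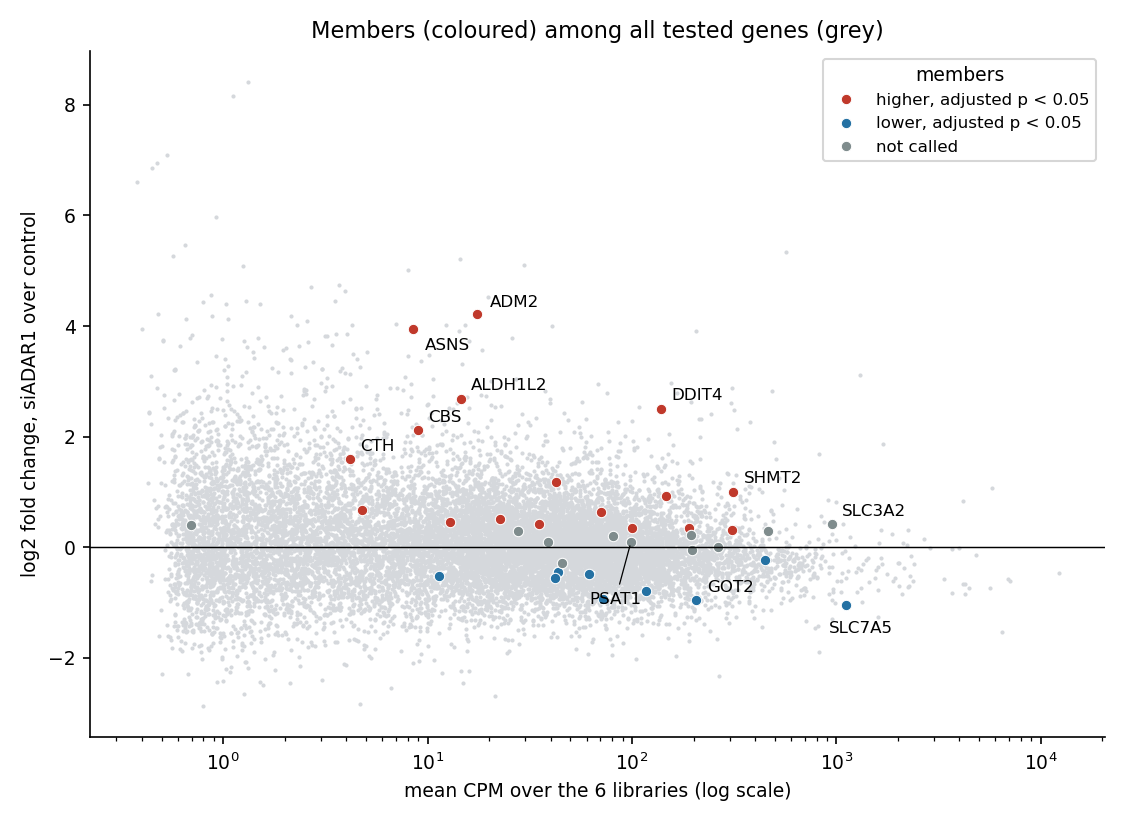
Mean level over the 6 libraries (CPM, log scale) against log2 fold change for all 15294 tested genes (grey) and the 38 tested genes of the set (coloured by call). ASNS, ADM2, ALDH1L2, CBS and CTH lie at the upper left among genes of low level, and SLC7A5 and SLC3A2 lie at the far right, below and above 0.

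In serine synthesis, 2 of the 3 enzymes rose. PSPH (chr7:56011051-56051604), the phosphatase of the last step, was at 20.7, 28.5 and 29.4 CPM in control and 62.8, 55.7 and 59.2 CPM in siADAR1. All siADAR1 values were above all controls (log2 fold change 1.18 ± 0.13, adjusted p = 1.19e-05). PHGDH, which commits 3-phosphoglycerate to the pathway, rose from 167.7 ± 14.1 to 213.4 ± 7.94 CPM (log2 fold change 0.35 ± 0.09, adjusted p = 0.00467). PSAT1, between them in the pathway, is the enzyme that was not called. In siADAR1 PSAT1 was the highest of the 3 in FPKM, at 46.1 against 22.9 for PHGDH and 21.2 for PSPH. In CPM PHGDH was the highest, at 213.4 against 102.2 for PSAT1 and 59.2 for PSPH. FPKM divide by 1 length per gene, 2188 bases for PSAT1, 9217 for PHGDH and 2762 for PSPH. Transcript lengths were not measured, so which of the 3 had the most mRNA is not shown.

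The folate enzymes divided by compartment: 3 of the 4 mitochondrial enzymes rose and both cytosolic enzymes fell. SHMT2 (chr12:57229327-57234935), which splits serine into glycine and a one-carbon unit in mitochondria, was at 204.8, 209.9 and 208.0 CPM in control and 492.3, 384.8 and 373.8 CPM in siADAR1. The controls were nearly equal and every siADAR1 library was far above them, with replicate 1 the highest (log2 fold change 1.01 ± 0.10, adjusted p = 5.67e-06). SHMT1, its cytosolic isoenzyme, was at 51.0, 49.5 and 49.3 CPM in control and 33.3, 38.3 and 38.9 CPM in siADAR1, again without overlap (log2 fold change -0.44 ± 0.10, adjusted p = 0.0031). ALDH1L2 (chr12:105019784-105084577), which oxidises mitochondrial 10-formyltetrahydrofolate with release of NADPH, was at 5.02, 3.50 and 3.15 CPM in control and 29.3, 21.4 and 24.9 CPM in siADAR1. Its groups lay 6.44-fold apart (log2 fold change 2.69 ± 0.20, adjusted p = 4.78e-07). MTHFD1, the trifunctional cytosolic enzyme, fell from 148.5 ± 3.52 to 86.4 ± 9.15 CPM (log2 fold change -0.78 ± 0.09, adjusted p = 2.18e-05). MTHFD1L, the mitochondrial formate-releasing enzyme, rose from 88.4 ± 8.72 to 112.4 ± 7.61 CPM (log2 fold change 0.35 ± 0.10, adjusted p = 0.00951), a call lost without control replicate 2 (adjusted p = 0.0557) and without control replicate 3 (adjusted p = 0.051). MTHFD2, a mitochondrial dehydrogenase and cyclohydrolase often named among ATF4 targets, overlapped between groups at 199.1 ± 14.4 and 192.0 ± 13.0 CPM (log2 fold change -0.05 ± 0.09, adjusted p = 0.643). The median log2 fold change was 0.68 over the mitochondrial enzymes and -0.61 over the cytosolic ones.

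**Figure D3:**
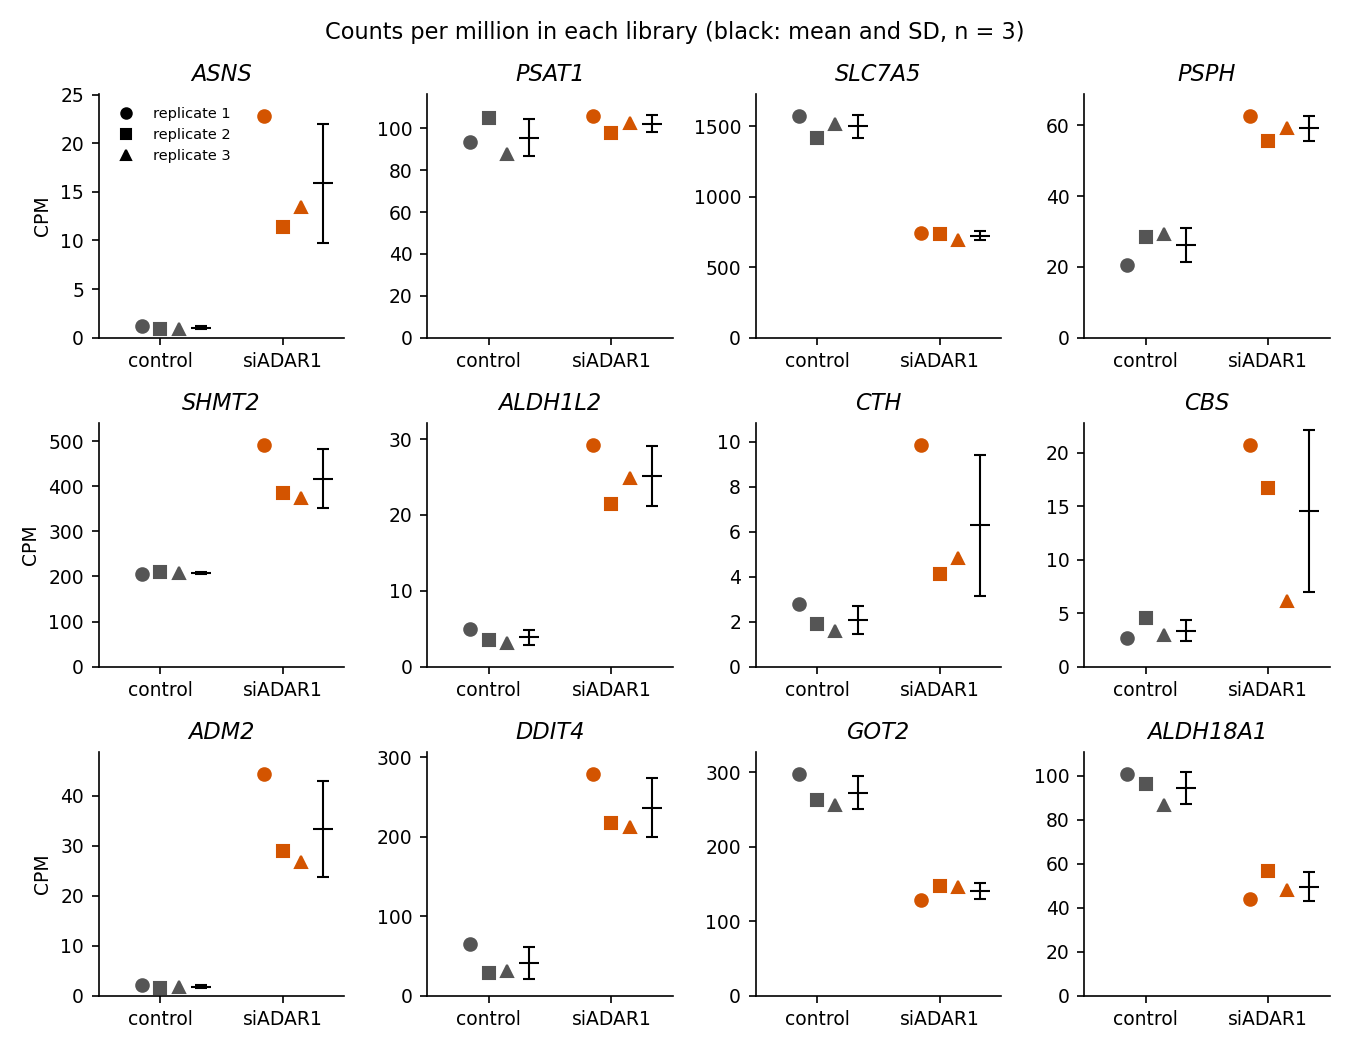
CPM in each of the 3 control and 3 siADAR1 libraries, 1 panel per gene, each with its own linear axis from 0, marker shape for the replicate number, and mean and SD (n = 3) in black. ASNS, ADM2 and ALDH1L2 start near 0 in control, SLC7A5 and GOT2 are lower in all siADAR1 libraries than in any control, and the PSAT1 groups overlap.

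Both transsulfuration enzymes, which turn homocysteine into cysteine, rose from low levels. CBS (chr21:43053191-43076943) was at 2.66, 4.51 and 2.96 CPM in control and 20.8, 16.7 and 6.10 CPM in siADAR1. The siADAR1 libraries were widely spread, and replicate 3 came close to the controls (log2 fold change 2.11 ± 0.46, adjusted p = 0.00646). Without both libraries numbered 1 the CBS call was lost (log2 fold change 1.61, adjusted p = 0.175). CTH (chr1:70411218-70439851) was at 2.78, 1.88 and 1.58 CPM in control and 9.87, 4.14 and 4.83 CPM in siADAR1, on counts of 46, 28 and 24 against 175, 65 and 76. All siADAR1 values were above the controls, replicate 1 most of all (log2 fold change 1.59 ± 0.35, adjusted p = 0.00214).

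In proline synthesis the first enzyme fell and the last rose. ALDH18A1, which makes pyrroline-5-carboxylate from glutamate, was at 101.0, 96.2 and 86.7 CPM in control and 43.8, 56.7 and 48.2 CPM in siADAR1. No siADAR1 library reached any control (log2 fold change -0.93 ± 0.11, adjusted p = 1.9e-05). PYCR1, which reduces that product to proline, rose from 18.6 ± 1.17 to 26.4 ± 2.06 CPM (log2 fold change 0.51 ± 0.12, adjusted p = 0.00397).

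Among the 7 amide and aminotransferase genes, ASNS and GPT2 rose, GOT2, GLUL and BCAT1 fell, and GOT1 and BCAT2 were not called. GOT2 (chr16:58707131-58734357), the mitochondrial aspartate aminotransferase that supplies aspartate and the malate-aspartate shuttle, was at 297.9, 263.1 and 256.1 CPM in control and 127.8, 147.6 and 145.6 CPM in siADAR1. It fell to 51.5% of control without overlap (log2 fold change -0.96 ± 0.09, adjusted p = 3.78e-06). The cytosolic GOT1 was at 77.5, 78.4 and 68.5 CPM in control and 102.7, 77.6 and 76.9 CPM in siADAR1, so that only siADAR1 replicate 1 stood above the controls (log2 fold change 0.20 ± 0.12, adjusted p = 0.183). The compartment split seen in the folate enzymes was not repeated here: of the 3 mitochondrial aminotransferases (GOT2, GPT2 and BCAT2) 1 rose and 1 fell. BCAT1, the cytosolic branched-chain aminotransferase, was at 60.1, 73.8 and 82.4 CPM in control and 46.9, 52.5 and 55.5 CPM in siADAR1 (log2 fold change -0.48 ± 0.12, adjusted p = 0.00492). BCAT2, the mitochondrial form, was at 56.1, 47.6 and 45.5 CPM in control and 37.4, 42.6 and 43.2 CPM in siADAR1, without overlap but without a call (log2 fold change -0.28 ± 0.11, adjusted p = 0.0544), and was called without control replicate 3 (adjusted p = 0.0413). GLUL, glutamine synthetase, fell from 50.1 ± 4.14 to 36.6 ± 2.70 CPM (log2 fold change -0.45 ± 0.11, adjusted p = 0.00342). GPT2, which links glutamate to alanine, rose 1.34-fold (log2 fold change 0.42 ± 0.12, adjusted p = 0.00931), a call lost without control replicate 3 (adjusted p = 0.0552).

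Of the 11 transporters 3 rose, 2 fell and 6 were not called, and SLC7A5 alone changed at least 2-fold. SLC3A2 (chr11:62856102-62888875), the heavy chain that pairs with SLC7A5 and other light chains at the cell surface, was at 957.7, 753.9 and 724.3 CPM in control and 1376, 967.9 and 920.0 CPM in siADAR1. Control replicate 1 overlapped the siADAR1 range, and the difference was not called (log2 fold change 0.42 ± 0.17, adjusted p = 0.0608). Without control replicate 1 it was called (log2 fold change 0.55, adjusted p = 0.0244), and so it was without siADAR1 replicate 3 (adjusted p = 0.0217), with DESeq2 (adjusted p = 0.0112), with limma-voom (adjusted p = 0.032) and in 4 other of the 17 alternative analyses. Within each library the FPKM of SLC7A5 divided by that of SLC3A2 was 1.79, 2.04 and 2.28 in control and 0.591, 0.829 and 0.818 in siADAR1. Light chain FPKM thus exceeded heavy chain FPKM in every control and lay below it in every siADAR1 library. These values divide by 1 length per gene, 4745 bases for SLC7A5 and 5178 for SLC3A2. As transcript lengths were not measured, the fall of the ratio is shown but not which chain had more mRNA. An exact two-sided permutation test of the ratio gave p = 0.1, the smallest value that 3 libraries against 3 allow. Adjusted over the 7 partner ratios computed, it was 0.14.

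SLC38A1 and SLC38A2, sodium-coupled carriers of glutamine and other neutral amino acids that lie side by side on chromosome 12, gave 1 call between them. SLC38A1 was at 465.7, 478.6 and 499.2 CPM in control and 418.7, 414.9 and 397.4 CPM in siADAR1 (log2 fold change -0.23 ± 0.07, adjusted p = 0.0199). The fall was small but without overlap, and its call was lost on library totals alone (log2 fold change -0.11, adjusted p = 0.22), without control replicate 2 or 3 (adjusted p = 0.0586 and 0.0621) and without siADAR1 replicate 2 or 3 (adjusted p = 0.053 and 0.0995). SLC38A2, which is itself induced when amino acids are scarce, was at 318.2, 427.2 and 499.7 CPM in control and 430.9, 515.2 and 580.9 CPM in siADAR1, with wide spread in both groups (log2 fold change 0.29 ± 0.16, adjusted p = 0.165). It was called without control replicate 3 (adjusted p = 0.0303). SLC7A6, another light chain that pairs with SLC3A2, overlapped between groups at 30.3, 20.5 and 23.9 CPM in control and 35.9, 31.2 and 24.5 CPM in siADAR1 (log2 fold change 0.29 ± 0.17, adjusted p = 0.158), and was called without control replicate 1 (adjusted p = 0.0312).

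SLC1A5, the glutamine carrier ASCT2, rose from 275.6 ± 29.7 to 342.7 ± 26.3 CPM (log2 fold change 0.31 ± 0.09, adjusted p = 0.0135), a call lost without control replicate 2 (adjusted p = 0.0814) or 3 (adjusted p = 0.0669). SLC1A4, a carrier of serine and alanine, rose from 3.69 ± 0.635 to 5.91 ± 0.727 CPM (log2 fold change 0.68 ± 0.22, adjusted p = 0.0211). Its call was lost without control replicate 2 (adjusted p = 0.0852), siADAR1 replicate 1 (adjusted p = 0.071) or siADAR1 replicate 2 (adjusted p = 0.0597). SLC6A9, a glycine carrier, rose from 10.8 ± 2.55 to 14.9 ± 0.365 CPM (log2 fold change 0.46 ± 0.17, adjusted p = 0.0401), and the call held among single libraries left out only for control replicate 1. The adjusted p without each of the others was 0.171 and 0.118 for control replicates 2 and 3 and 0.061, 0.0951 and 0.0902 for siADAR1 replicates 1 to 3. Of the remaining carriers, SLC7A1 for cationic amino acids (log2 fold change 0.22 ± 0.16, adjusted p = 0.262) and SLC1A3 for glutamate (0.09 ± 0.15, adjusted p = 0.636) overlapped between groups. SLC7A1 was called without control replicate 1 (log2 fold change 0.38, adjusted p = 0.035). SLC43A1, a carrier of large neutral amino acids, had only 6 to 15 counts per library and was not called (log2 fold change 0.40 ± 0.46, adjusted p = 0.492).

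**Figure D4:**
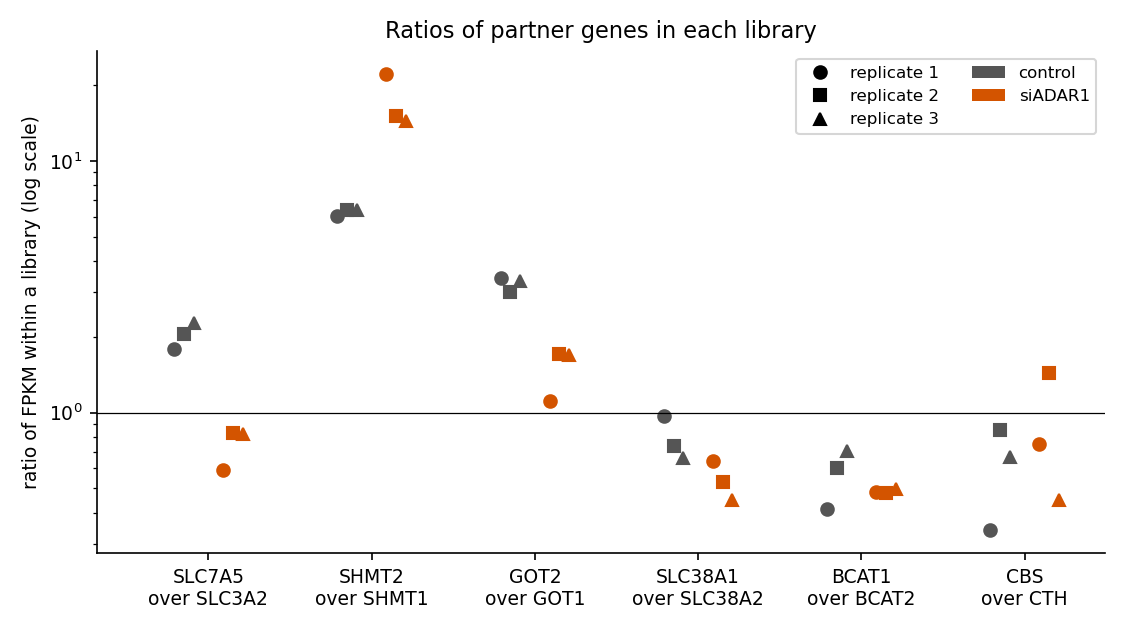
Ratio of FPKM between 6 pairs of partner genes or isoenzymes within each library (log scale), control in grey and siADAR1 in orange, with marker shape for the replicate number and a line at 1. The groups separate for SLC7A5 over SLC3A2, SHMT2 over SHMT1, GOT2 over GOT1 and SLC38A1 over SLC38A2, and overlap for BCAT1 over BCAT2 and CBS over CTH.

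Ratios within libraries do not depend on library scaling. SHMT2 over SHMT1 went from 6.26 ± 0.188 in control to 17.3 ± 4.31 in siADAR1, GOT2 over GOT1 from 3.26 ± 0.229 to 1.50 ± 0.337, and SLC7A5 over SLC7A6 from 98.0 ± 13.8 to 38.6 ± 5.99 (each exact p = 0.1, adjusted p = 0.14). For SLC38A1 over SLC38A2 the ratio was 0.787 ± 0.159 in control and 0.541 ± 0.0952 in siADAR1 (exact p = 0.1, adjusted p = 0.14). In every siADAR1 library the mitochondrial form thus had a larger share of the SHMT pair, and a smaller share of the GOT pair, than in any control. BCAT1 over BCAT2, at 0.571 ± 0.145 and 0.486 ± 0.0103 (exact p = 0.4), and CBS over CTH, at 0.620 ± 0.259 and 0.879 ± 0.508 (exact p = 0.5), overlapped between the groups.

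Of the 8 transcription factors and other stress genes, 7 were tested, 4 rose and 2 fell. ADM2 (chr22:50481556-50486440), a secreted peptide of the calcitonin family, was at 2.05, 1.48 and 1.77 CPM in control and 44.4, 28.8 and 26.7 CPM in siADAR1, the largest fold in the set at 18.7 (log2 fold change 4.22 ± 0.24, adjusted p = 8.72e-08). DDIT4 (chr10:72273920-72276036), also known as REDD1, which restrains the growth kinase mTORC1, was at 64.7, 29.1 and 30.6 CPM in control and 279.3, 217.3 and 212.5 CPM in siADAR1. Replicate 1 was the highest in both groups, and the groups lay 5.69-fold apart (log2 fold change 2.51 ± 0.36, adjusted p = 0.00271). STC2, a secreted stanniocalcin, was at 104.2, 99.6 and 100.7 CPM in control and 252.0, 170.5 and 155.4 CPM in siADAR1 (adjusted p = 0.000658). CEBPG, a partner with which ATF4 forms heterodimers, rose from 55.2 ± 0.273 to 85.9 ± 7.55 CPM (log2 fold change 0.64 ± 0.10, adjusted p = 0.00012). CEBPB, the related factor, overlapped between groups at 261.5 ± 37.3 and 264.0 ± 24.8 CPM (log2 fold change 0.01 ± 0.11, adjusted p = 0.926). ATF5, another stress-induced factor of the ATF family, was at 62.7, 45.8 and 41.4 CPM in control and 39.4, 32.1 and 30.6 CPM in siADAR1, and so fell (log2 fold change -0.55 ± 0.15, adjusted p = 0.00906). VLDLR, a lipoprotein receptor, fell from 13.3 ± 1.34 to 9.33 ± 0.744 CPM (log2 fold change -0.51 ± 0.16, adjusted p = 0.0144). Its call was lost in 6 of the 17 alternatives. Among them were leaving out control replicate 2 (adjusted p = 0.0541) or siADAR1 replicate 3 (adjusted p = 0.0694), library totals alone (adjusted p = 0.0505) and limma-trend on FPKM with a pseudocount of 1 (adjusted p = 0.0675). NUPR1, a small stress-induced chromatin protein, was too low to be tested, with 1, 0 and 2 counts in control and 7, 7 and 2 in siADAR1. Its summed counts gave a ratio of 5.06 relative to library totals (95% exact interval 1.45 to 27.1, counting error only), and without the filter on low counts it was not called (log2 fold change 2.20, adjusted p = 0.212).

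The library labelled siADAR1 replicate 1 was the highest of the 3 siADAR1 libraries for 15 of the 17 risen genes and the lowest for 6 of the 10 fallen genes. Over all genes called higher in the table it was the highest for 66.5%, and over all called lower it was the lowest for 65.2%. Each of the 27 called genes of the set separated the groups without overlap, which choosing genes by their call favours. Among all tested genes, called or not, 60.3% did not overlap. Calls held in all 17 alternative analyses for ASNS, SLC7A5, SHMT2, ALDH1L2, PSPH, GOT2 and ADM2. The same was true of PHGDH, SHMT1, MTHFD1, ALDH18A1, PYCR1, GLUL, STC2, DDIT4 and CEBPG. Every other call of the set was lost in at least 1 alternative, not each of which is listed above. SLC6A9 lost its call in 8 of the 17, and SLC1A4 and VLDLR lost theirs in 6.

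Some of the genes have near-identical copies or overlapping neighbours between which reads may be divided. By name, 29 pseudogenes or copies of the set are annotated, of which 6 had any count, and 4 had at least 20 counts in total. They are given here after their values were seen. ASNSP1, a pseudogene of ASNS, had 5, 6 and 3 counts in control and 219, 83 and 81 in siADAR1 and moved with ASNS (log2 fold change 4.63 ± 0.47, adjusted p = 6.3e-06). ASNS itself had 20, 14 and 14 counts in control and 405, 179 and 211 in siADAR1. How reads divided between ASNS and ASNSP1 was not tested, so the level of ASNS itself is uncertain. SLC7A5P1, a partial copy of SLC7A5, had 16, 20 and 18 counts in control and 202, 123 and 112 in siADAR1, and so rose (log2 fold change 2.91 ± 0.27, adjusted p = 2.94e-06) where SLC7A5 fell. The counts of SLC7A5 were far larger, at 26039, 20982 and 23005 in control and 13204, 11552 and 10849 in siADAR1. MTHFD2P1 rose from 13, 4 and 9 counts to 26, 27 and 31 (log2 fold change 1.62 ± 0.44, adjusted p = 0.00769), while MTHFD2 was not called. CBSL, a copy of CBS that was too low to be tested, had 11, 2 and 2 counts in control and 6, 13 and 11 in siADAR1, so the level of CBS itself is uncertain. No step of the library protocol records strand, and 11 genes of the set overlap another annotated gene with at least 60 counts. For ATF5 the neighbour on the opposite strand, NUP62, had a mean of 3439 counts in control and 2226 in siADAR1, and for ALDH1L2 the opposite gene C12orf45 had 474 and 439. Reads in the shared stretches cannot be assigned to either gene, so the fall of ATF5 is uncertain.

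The genes around the set gave a mixed picture. Of 13 genes outside the set that act upstream or downstream of ATF4, with ATF4 itself, 7 rose, 2 fell and 4 were not called. Over all tested genes 51.0% were called. Of the 7 that rose, 6, all but ATF4, rose at least 2-fold, where 9.85% of all tested genes did, and no eIF2 kinase gene rose. ATF4 mRNA was at 256.4, 316.7 and 276.7 CPM in control and 346.2, 317.8 and 342.6 CPM in siADAR1 (log2 fold change 0.24 ± 0.09, adjusted p = 0.0374). That call was lost in 9 of the 17 alternatives, among them leaving out control replicate 1 (adjusted p = 0.13), control replicate 3 (adjusted p = 0.124) or siADAR1 replicate 1, 2 or 3 (adjusted p = 0.0771, 0.0505 and 0.101). CHAC1, which degrades glutathione and is a known ATF4 target, rose by 2.82 ± 0.17 on the log2 scale (adjusted p = 1.44e-07), DDIT3, encoding CHOP, by 2.31 ± 0.13 (adjusted p = 1.03e-07), and PPP1R15A, the phosphatase subunit that reverses eIF2 phosphorylation, by 2.27 ± 0.13 (adjusted p = 1.55e-07). The eIF2 kinase genes EIF2AK2 (PKR) and EIF2AK1 fell, with log2 fold changes of -0.46 ± 0.09 and -0.27 ± 0.08. The other eIF2 kinase genes, EIF2AK3 and EIF2AK4, were not called (adjusted p = 0.819 and 0.909). The EIF2AK1 call was lost on library totals alone (log2 fold change -0.15, adjusted p = 0.137) and on FPKM with no filter (limma-trend, adjusted p = 0.0596). The files hold mRNA levels alone, so translation of ATF4 and phosphorylation of eIF2 were not measured.

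Other amino acid genes, outside the set, were counted in the same way, against 26.0% higher and 25.0% lower over all tested genes. Of 26 further enzymes tested, 4 rose, 12 fell and 10 were not called, with a median log2 fold change of -0.31. TYMS, the thymidylate synthase that uses one-carbon units for DNA, fell from 75.7 ± 2.85 to 25.0 ± 2.45 CPM (log2 fold change -1.60 ± 0.11, adjusted p = 2.61e-07). GLUD1, glutamate dehydrogenase, fell as well (log2 fold change -1.36 ± 0.10, adjusted p = 5.16e-07), as did MAT2A, which makes S-adenosylmethionine (-1.12 ± 0.14, adjusted p = 5.33e-05). Of 19 further transporters tested, 4 rose, 9 fell and 6 were not called, with a median of -0.30. SLC43A2, a carrier of large neutral amino acids like SLC7A5, rose from 42.9 ± 4.56 to 77.1 ± 11.8 CPM (log2 fold change 0.85 ± 0.12, adjusted p = 9.96e-05). The taurine carrier SLC6A6 (-0.75 ± 0.11, adjusted p = 0.000113) and the mitochondrial ornithine carrier SLC25A15 (-0.72 ± 0.16, adjusted p = 0.00229) fell.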

How the data were processed

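RNA sequencing of polyadenylated RNA was analysed for 3 control and 3 siADAR1 samples of KYSE410. Groups and replicate numbers came from the titles, and 0 table columns were left without a sample. CASAVA, fastp and HISAT2 2.0.5 are named, per the submitters' processing notes, without role or order. How reads were counted, with which strand setting, build and annotation, is not given in the sources used here. Coordinates of all 58735 genes were identical to those of GENCODE 29 on GRCh38. The deposited counts are unnormalized whole reads for each gene, per the file headers and values. The deposited FPKM values carry a library factor set by the authors, of 0.966 to 0.97 of the count total in control and 1.05 to 1.06 in siADAR1.

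In R 4.3.3, edgeR 4.0.16 filtered genes (filterByExpr, minimum count 10), scaled libraries by TMM and tested siADAR1 against control with group as the single term. The robust quasi-likelihood test was used, two-sided, with Benjamini-Hochberg adjustment over 15294 genes and a threshold of 0.05. CPM are on TMM-scaled totals. Reads carry no molecular identifiers. Full values were given for ASNS, PSAT1 and SLC7A5, for genes changed at least 2-fold, for partner pairs and for NUPR1. Other lists were described by up to 3 genes in each direction with the smallest p, with ATF4 added, and 2 genes that this rule named are not reported here. The members and lists were chosen with earlier results of these data known. Alternatives were RLE size factors, library totals alone, DESeq2 1.42.0, limma-voom (limma 3.58.1), 2 other low-count filters, a replicate block, leaving out each library, leaving out both libraries numbered 1, and limma-trend on FPKM (pseudocount 1 or 0.1, mean of at least 0.5, or no filter).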

Additional observations from a re-analysis of the deposited data

How the results depend on the processing

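ASNS rose and SLC7A5 fell in all 17 alternatives, PSAT1 was called in none, and no call changed sign. On library totals alone, the median log2 fold change reached 0.12 for all tested genes, 0.42 over the set and over its other enzymes and transporters, and 0.22 over ASNS, PSAT1 and SLC7A5, and 1 transcription factor or stress gene was lower. With no filter on low counts the median was 0.029 over all genes and 0.78 over the transcription factors and stress genes. On FPKM with a pseudocount of 1 or 0.1, the median over all genes was -0.00723 or -0.00749 and 1 transcription factor or stress gene was lower. On FPKM without a filter, 10 genes of the set rose, 5 of them other enzymes or transporters, 0 transcription factors or stress genes fell, and the median over these was 0.33. A pseudocount of 1 FPKM also shrinks the folds of low genes, to a log2 value of 1.84 for ASNS and 2.60 for ADM2. Leaving out each library in turn gave 13 to 20 genes of the set higher and 8 to 10 lower, with 8 to 15 other enzymes and transporters higher. In these analyses the median over ASNS, PSAT1 and SLC7A5 ran from 0.0305 to 0.169, and 1 to 2 transcription factors or stress genes were lower. Without control replicate 2, 21 genes of the set were called, all among the 27. Deviations from the group means of same-numbered libraries correlated at 0.301, 0.0963 and 0.177 for replicates 1 to 3. Between libraries of different number the correlations ran from -0.25 to 0.141, so a pairing, above all of replicate 1, is not excluded. The labels name no pairing, and the main fit used none. The fit with the replicate number as a block called 4396 genes higher and 4186 lower, and 32 of the set, among them the 27. The others were SLC3A2 (edgeR, adjusted p = 0.00018), SLC38A2 (0.00305), SLC7A1 (0.032) and SLC7A6 (0.0452), which were higher, and BCAT2 (0.0342), which was lower. With 3 libraries per group and 6 to 15 counts per library for SLC43A1, differences in genes this low are not detectable unless large.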

Other observations

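Genes through which amino acid supply reaches the growth kinase mTORC1 were counted in the same way. Of 17 tested, 4 rose, 2 fell and 11 were not called, with a median log2 fold change of 0.11, where 26.0% of all tested genes were higher and 25.0% lower. RRAGB, a Rag GTPase that recruits mTORC1 to lysosomes, was at 6.59, 5.72 and 7.95 CPM in control and 18.3, 14.8 and 12.9 CPM in siADAR1 (log2 fold change 1.18 ± 0.19, adjusted p = 0.000168, edgeR quasi-likelihood test with Benjamini-Hochberg adjustment). RRAGC, the partner of RRAGB, rose as well (log2 fold change 0.59 ± 0.15, adjusted p = 0.00534, edgeR). DEPDC5, a subunit of the GATOR1 complex, fell to 10.4 ± 1.44 CPM (log2 fold change -0.53 ± 0.15, adjusted p = 0.0104, edgeR). That call was lost in 4 of the 17 alternatives, among them leaving out siADAR1 replicate 3 (adjusted p = 0.0567). LAMTOR2, a subunit of the lysosomal Ragulator complex, fell from 17.1 ± 0.891 to 12.1 ± 1.37 CPM (log2 fold change -0.50 ± 0.14, adjusted p = 0.0102, edgeR). Activity of mTORC1 was not measured.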
